A study of Mus musculus with 63 samples.

Results

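Gene expression was compared between synaptopodin deficient (SP-KO) and wildtype CA3 tissue of control cultures, that is, cultures in which the entorhinal cortex was left connected. The comparison took every library that the labels title CA3 tissue and control: 6 SP-KO and 2 wildtype libraries, 8 of the 63 libraries of the series, with all autosomal genes entering the test. SP-KO cultures came from mice of the strain B6.129-Synpotm1Mndl/Dllr (Synpo-/-), which had been backcrossed to C57BL/6J, and wildtype cultures from C57BL/6J mice (Synpo+/+). All were organotypic entorhino-hippocampal slices of pups of either sex, prepared at postnatal day 3 to 5 and kept at least 18 days in vitro. The labels give no transgene and no treatment for these cultures. Each library was made from the CA3 area of 1 culture, cut out with a scalpel, so the tissue held pyramidal cells, interneurons and glia together. The labels do not say which cultures came from the same animal or litter, and p-values measure the spread between these cultures.

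Synaptopodin is an actin- and alpha-actinin-binding protein of dendritic spines. It is required for the spine apparatus, a stack of smooth endoplasmic reticulum that stores calcium and is found in many spines of CA3 pyramidal cells, including those contacted by mossy fibers. Neurons that lack it form no spine apparatus. The comparison in control cultures asks how the CA3 transcriptome differs between the genotypes before any lesion.

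Total counts ranged from 15485910 to 27138441 in the SP-KO libraries and were 14208728 and 16843281 in the wildtype libraries. The CA3 marker list fixed for the tissue (Grik4, Iyd, Cpne4, Cdh24, Bok, Coch and Nectin3) summed to 508.5 to 600.0 CPM (counts scaled to a common library total) in SP-KO and 451.8 to 549.2 CPM in wildtype libraries. Dentate granule cell markers summed to between 137.4 and 254.6 CPM, the highest value being that of SP-KO replicate 1, in which the granule cell gene Prox1 stood at 38.97 CPM against 13.1 to 18.4 CPM in the other 7 libraries. Both wildtype libraries and SP-KO replicates 1 to 4 had more Xist than Y-linked counts, while SP-KO replicates 5 and 6 had more Y-linked counts. Nnt, a mitochondrial gene that differs between C57BL/6 substrains, did not differ (log2 fold change -0.14 ± 0.15 SE, edgeR adjusted p = 0.661). No 2 libraries agreed within sampling noise (the smallest chi-square per degree of freedom was 10.99).

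Synpo itself, the targeted gene (chromosome 18, 60593973 to 60660142, minus strand, GRCm38), was not lower in the SP-KO libraries. Its level was 36.5, 36.4, 37.6, 32.3, 42.7 and 39.9 CPM in SP-KO replicates 1 to 6 and 27.6 and 25.7 CPM in wildtype replicates 1 and 2. All 6 SP-KO libraries were thus above both wildtype libraries. The log2 fold change was 0.57 ± 0.16 (SE) with an edgeR adjusted p of 0.132, and the exact two-sided permutation test gave p = 0.0714, which is the smallest that this two-sided test gives over 28 arrangements of 6 against 2 libraries. Gene counts sum all exons of a gene, so these values do not show whether any exon is missing. The Synpo count therefore did not serve as a check of the genotype labels. In the other pairs of groups the Synpo log2 fold change was 0.25 ± 0.11 (SE) in lesioned CA3, 1.17 ± 0.13 in control dentate gyrus (DG) and 0.35 ± 0.14 in lesioned DG, and edgeR called the gene in control DG alone (adjusted p = 0.000416).

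Among 23408 autosomal genes tested with edgeR, 19 were called at an adjusted p under 0.05, or 0.0812% of the genes. Of these, 14 were higher in SP-KO (0.0598%) and 5 were lower (0.0214%). The antisense RNA gene 1500015A07Rik had an adjusted p of 0.00252, and the other 18 genes shared the value 0.0458, just inside the threshold. At an unadjusted p under 0.05 there were 3775 genes, of which 2052 were higher in SP-KO, where 1170 are expected if no gene differs. In all 19 genes, the 6 SP-KO libraries lay on one side of both wildtype libraries, as did 9.02% (above) and 8.27% (below) of all genes tested. How many genes passed depended on single libraries: 1, 1, 4, 43, 3 and 160 genes were called without SP-KO replicates 1 to 6 in turn, 0 without wildtype replicate 1 (1757 at an unadjusted p under 0.05, edgeR) and 33 without wildtype replicate 2. With wildtype replicate 1 or 2 left out, the remaining wildtype library was assumed to vary like the SP-KO libraries. DESeq2 called 698 genes, 17 of the 19 among them.

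**Figure D1:**
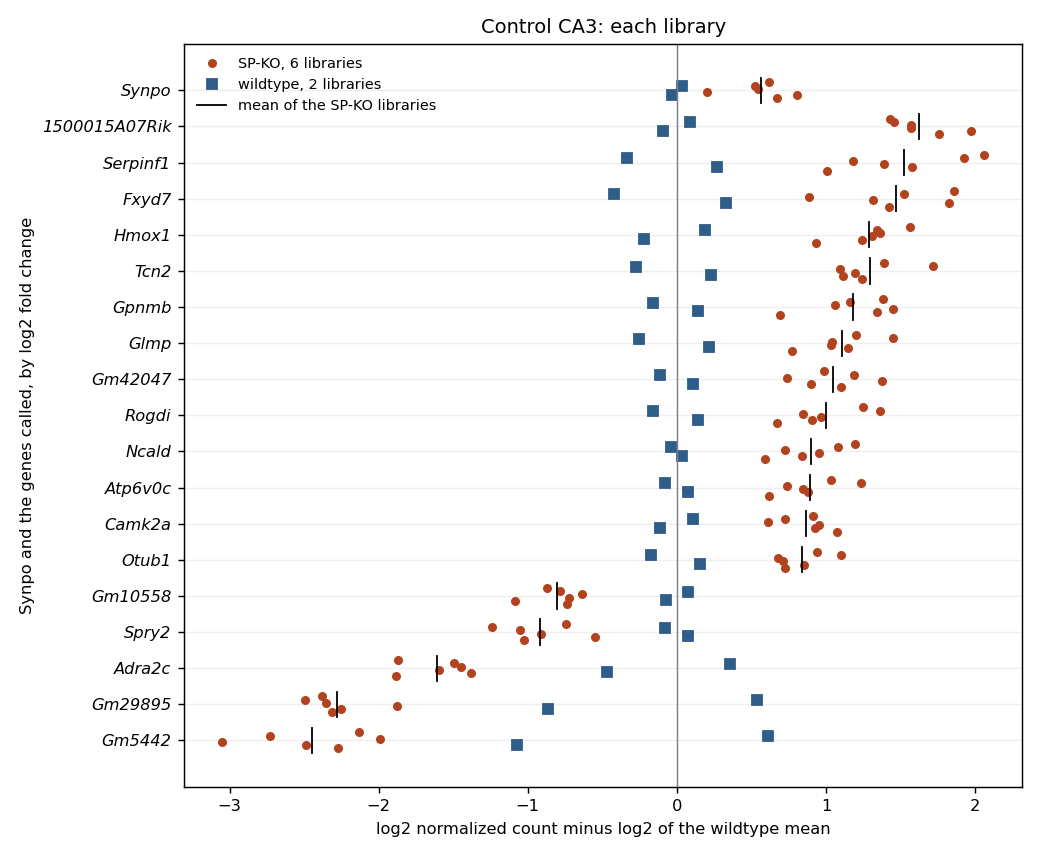
Normalized counts of Synpo and of 18 of the 19 called genes in each of the 8 control CA3 libraries, on the log2 scale relative to the mean of the wildtype libraries. Points are SP-KO libraries, squares are wildtype libraries and black bars are SP-KO means. The SP-KO points lie on one side of both squares in every row, also for Synpo, which was not called.

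The genes that rose are described in an order by known role that was set after the calls were seen and was not tested as a grouping. 1500015A07Rik and Gm42047 are noncoding, and the others described encode proteins.

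Hmox1 (chromosome 8, 75093621 to 75100589) encodes heme oxygenase 1, which is induced by oxidative stress and breaks down heme. Its normalized count ranged from 265 to 410 in SP-KO (median 348) and was 159 and 120 in wildtype, a log2 fold change of 1.30 ± 0.20 (SE, edgeR adjusted p = 0.0458). Gpnmb (chromosome 6, 49036546 to 49070929), a transmembrane glycoprotein of lysosome-rich phagocytes, ranged from 635 to 1077 (median 939) against 352 and 435, a log2 fold change of 1.20 ± 0.19. Glmp (chromosome 3, 88325023 to 88331313), a glycosylated protein of the lysosomal membrane, ranged from 560 to 896 (median 703) against 275 and 382, a log2 fold change of 1.12 ± 0.19. In each of the 3 genes the lowest SP-KO library exceeded the highest wildtype library. Glmp overlaps Tmem79 on the opposite strand, and the counts ignore strand, but Tmem79 had a mean normalized count of 60.4 against 618 for Glmp. Atp6v0c (chromosome 17, 24163866 to 24169702) encodes the proton-conducting ring subunit of the V-ATPase, the pump that acidifies lysosomes and synaptic vesicles. It ranged from 4283 to 6586 (median 5079) against 2648 and 2938 (log2 fold change 0.91 ± 0.16). Among the 20 V-ATPase subunits tested, a list written after the results were seen, Atp6v0c was the 1 called gene. Over all genes tested, 0.0812% were called. Of the 20, 16 had a positive log2 fold change and the median was 0.17, against -0.03 over all genes. Among genes with a mean normalized count over 300 the median was 0.13 and 72.2% were positive, so the list lay near such genes. With length and GC trends removed the medians of the list and of all genes were 0.05 and -0.11. The list median was 0.34 without wildtype replicate 2. Tcn2 (chromosome 11, 3917192 to 3932159), which encodes the carrier of vitamin B12 into cells, ranged from 242 to 372 (median 263) against 93.5 and 133 (log2 fold change 1.30 ± 0.22). Serpinf1 (chromosome 11, 75409769 to 75422701) encodes the secreted factor PEDF. It ranged from 1138 to 2362 (median 1583) against 449 and 683, a log2 fold change of 1.57 ± 0.26, the largest rise among the called protein coding genes. SP-KO replicate 6 was the lowest SP-KO library for Hmox1, Gpnmb, Glmp, Atp6v0c and Serpinf1. Its summed count of microglia markers was the smallest among the SP-KO libraries (1206 CPM against 1604 to 2516 CPM). In wildtype replicates 1 and 2 that sum was 1031 and 1674 CPM. A link between the sum and these genes was not tested.

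The promoters of Glmp, Atp6v0c and Gpnmb are printed here because each of these called genes holds a match to a short motif. The genes and motifs were picked after the results were seen, and no list of lysosomal genes was tested. RefSeq promoters (GRCm38.p6, 250 bases before to 50 after a start) matched 9 of the 19 called genes. The 3 motifs were searched on both strands: TCATGTGA (the M-box of MITF and TFE factors), TCACGTGA (a palindromic E-box) and TGAGTCA (the AP-1 site). They occur in 0.986%, 0.974% and 5.20% of all 32851 promoters. TCATGTGA was found in Glmp and in 1 of 3 promoters of Atp6v0c, TGAGTCA in Gpnmb, and TCACGTGA in none of the 9 genes. Sequences run 5′ to 3′ along the gene, with the match in capitals.
Glmp, chr3:88324773-88325072, plus strand: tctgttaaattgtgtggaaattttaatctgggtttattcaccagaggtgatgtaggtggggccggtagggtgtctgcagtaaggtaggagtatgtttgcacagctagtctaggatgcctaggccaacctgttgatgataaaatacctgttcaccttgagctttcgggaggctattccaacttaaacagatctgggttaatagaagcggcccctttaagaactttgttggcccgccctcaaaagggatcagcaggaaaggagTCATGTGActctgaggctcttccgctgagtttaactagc
Atp6v0c, chr17:24169401-24169700, minus strand: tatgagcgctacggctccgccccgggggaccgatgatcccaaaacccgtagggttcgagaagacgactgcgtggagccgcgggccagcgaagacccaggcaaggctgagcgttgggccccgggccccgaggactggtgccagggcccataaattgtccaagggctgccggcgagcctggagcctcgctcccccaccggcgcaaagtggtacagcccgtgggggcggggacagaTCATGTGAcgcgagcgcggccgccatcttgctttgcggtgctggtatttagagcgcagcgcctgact
Gpnmb, chr6:49036268-49036567, plus strand: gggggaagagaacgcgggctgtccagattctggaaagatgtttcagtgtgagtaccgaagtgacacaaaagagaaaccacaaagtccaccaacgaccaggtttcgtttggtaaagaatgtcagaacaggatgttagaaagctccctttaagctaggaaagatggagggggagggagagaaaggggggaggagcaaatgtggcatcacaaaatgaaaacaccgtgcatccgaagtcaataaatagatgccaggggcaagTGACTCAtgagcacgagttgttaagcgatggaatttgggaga
A match of letters is no evidence that a factor binds there. The TCATGTGA match starts 11 bases after the first transcribed base in Glmp and 17 bases before it in Atp6v0c.

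Camk2a encodes the alpha subunit of calcium/calmodulin-dependent protein kinase II, a main kinase of the postsynaptic density whose mRNA is carried into dendrites, and it lies on chromosome 18 (60925618 to 60988152) close to Synpo. Its normalized count ranged from 17669 to 24309 in SP-KO (median 21864) and was 12431 and 10681 in wildtype, with no overlap (log2 fold change 0.88 ± 0.14 SE, edgeR adjusted p = 0.0458). The other subunits were not called: the log2 fold change was 0.16 ± 0.16 for Camk2b, 0.49 ± 0.16 for Camk2d and 0.18 ± 0.13 for Camk2g. Fxyd7 (chromosome 7, 31042513 to 31051467) encodes a small membrane protein of the FXYD family of ion transport regulators, found mainly in brain. It ranged from 316 to 620 (median 476) against 127 and 215, a log2 fold change of 1.502 ± 0.262.

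Ncald (chromosome 15, 37366175 to 37792570) encodes the neuronal calcium sensor neurocalcin delta. It ranged from 7140 to 10847 (median 8855) in SP-KO against 4630 and 4867 in wildtype (log2 fold change 0.91 ± 0.16 SE). Rogdi (chromosome 16, 5008730 to 5013553), mutated in Kohlschütter-Tönz syndrome, an epilepsy with enamel defects, ranged from 1442 to 2328 (median 1735) against 813 and 1000.4 (log2 fold change 1.02 ± 0.18). Otub1 (chromosome 19, 7198202 to 7206316) ranged from 3143 to 4208 (median 3399) against 1740 and 2183 (log2 fold change 0.84 ± 0.15). The lincRNA gene Gm42047 (chromosome 8, 121833247 to 121841178) ranged from 436 to 678 (median 539) against 241 and 281 (log2 fold change 1.06 ± 0.18). None of these groups overlapped. Gm42047 lies within the annotated gene Galnt2l, on the same strand.

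All 5 genes that fell are named, although the rule for named genes held for Spry2 alone, so the other 4 were chosen after their values were seen. Spry2 (chromosome 14, 105891947 to 105896819) encodes an inhibitor of receptor tyrosine kinase signalling that is itself induced by MAP kinase activity. Its normalized count ranged from 700.2 to 1131 in SP-KO (median 845) and was 1568 and 1738 in wildtype (log2 fold change -0.90 ± 0.15 SE, edgeR adjusted p = 0.0458). Adra2c (chromosome 5, 35278319 to 35281763), the alpha-2C adrenergic receptor, ranged from 41.3 to 58.7 (median 52.5) against 195 and 110 (log2 fold change -1.59 ± 0.25). The related Adra2a stood at -0.02 ± 0.28. Gm10558 (chromosome 1, 66322276 to 66328796), an antisense gene, ranged from 390 to 533 (median 489) against 870 and 786 (log2 fold change -0.80 ± 0.14). Gm10558 lies entirely within Map2 on the opposite strand, so its unstranded count cannot be told apart from Map2 reads. Map2 itself had a mean normalized count of 13071 and a log2 fold change of -0.08 ± 0.13. The pseudogene Gm5442 (chromosome 12) ranged from 9.55 to 19.8 against 121 and 37.5, and the lincRNA gene Gm29895 (chromosome 8) from 10.6 to 16.2 against 86.7 and 32.8. In both, and in Adra2c, the wildtype libraries differed from each other by more than the whole SP-KO range.

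The Synpo-/- allele was made on a 129 background, so genes linked to Synpo were taken as a group of their own. Of 342 genes annotated within 10 Mb of Synpo, 153 were tested, and 2 were called, against 19 of 23408 (0.0812%) over all genes. The 2 were 1500015A07Rik and Camk2a, which lie 1066248 and 265476 bases from the nearest annotated end of Synpo. The median log2 fold change of the 153 genes was -0.05, against -0.03 over all genes tested. All SP-KO libraries were above both wildtype libraries in 11 of them (7.19%) and below in 19 (12.4%), against 9.02% and 8.27% over all genes. 1500015A07Rik (61726390 to 61735917, plus strand) ranged from 594 to 865 in SP-KO (median 655) and was 234 and 206 in wildtype, a log2 fold change of 1.64 ± 0.18 (SE). It overlaps the last 5657 bases of Afap1l1, a gene on the other strand that encodes an actin filament-associated protein. The overlapping Afap1l1 was not called, with a log2 fold change of -0.76 ± 0.33 (edgeR adjusted p = 0.271), in the opposite direction. Beside the called genes, the smallest p in the region belonged to Spink10 (log2 fold change -0.99 ± 0.22, adjusted p = 0.0892) and to Grp, the gene of gastrin-releasing peptide (-1.79 ± 0.41, adjusted p = 0.0904).

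**Figure D2:**
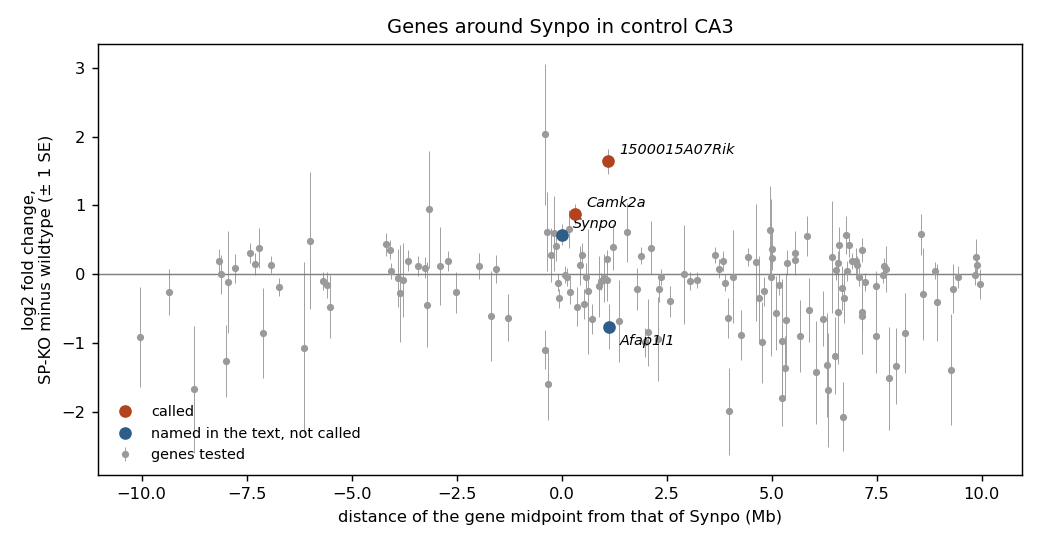
Log2 fold change, SP-KO minus wildtype in control CA3, of the 153 genes tested within 10 Mb of Synpo, against the distance of each gene's midpoint from that of Synpo in Mb. Bars are 1 SE. The 2 called genes, 1500015A07Rik (1.64) and Camk2a (0.88), lie to the right of Synpo, and Afap1l1 (-0.76), which overlaps 1500015A07Rik, lies below 0.

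The difference in 1500015A07Rik recurred in the other 3 pairs of groups, which share no library with control CA3. The edgeR log2 fold change was 1.64 ± 0.17 (SE) in lesioned CA3 (adjusted p = 0.00241), 1.22 ± 0.12 in control DG (0.000201) and 1.20 ± 0.13 in lesioned DG (0.00161). Few genes were called in these comparisons: 2 of 21749 in lesioned CA3 (0.0092%), 5 of 23364 in control DG (0.0214%) and 4 of 23341 in lesioned DG (0.0171%). The log2 fold change of Afap1l1 was -1.26 ± 0.19, -0.64 ± 0.16 and -1.07 ± 0.16 in the same order, and the gene was called lower in lesioned DG (edgeR adjusted p = 0.0469). Gm4951, Gm4841 and Rnf168 were picked out after the values were seen. Gm4951, 0.346 Mb from Synpo, had log2 fold changes of -1.10 ± 0.28 in control CA3, -1.54 ± 0.25 in lesioned CA3, -1.52 ± 0.35 in control DG and -1.21 ± 0.24 in lesioned DG, and passed the test in none. The nearby Gm4841 went the other way and was called higher in lesioned DG (3.42 ± 0.41, edgeR adjusted p = 0.00305). Gm4841 stood at 0.62 in control CA3, 2.77 in lesioned CA3 and 1.91 in control DG. Rnf168, a ubiquitin ligase gene of the DNA damage response on chromosome 16, was called lower in the other 3 comparisons and had a log2 fold change of -0.55 ± 0.13 in control CA3 (adjusted p = 0.0984), with all SP-KO libraries (549 to 692 normalized counts) below both wildtype libraries (924 and 828).

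For all 19 genes the sign was also read in the other comparisons. In control DG all 19 genes had the sign seen in control CA3, where 71.7% of the 22132 genes tested in both did. Gm42047 was called there as well (log2 fold change 1.03 ± 0.16 SE, edgeR adjusted p = 0.0299). In lesioned CA3 6 of the 19 and in lesioned DG 9 of the 19 had the same sign, against 37.2% and 43.5% of all genes tested in both. Camk2a, for example, stood at 0.09 ± 0.20 in lesioned CA3, 0.41 ± 0.21 in control DG and -0.30 ± 0.26 in lesioned DG. Glmp stood at -0.33 ± 0.23, 0.37 ± 0.18 and 0.06 ± 0.15, and Adra2c at 0.41 ± 0.24, -0.18 ± 0.22 and 0.01 ± 0.26. The labels do not say whether control DG and control CA3 libraries came from the same cultures.

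**Figure D3:**
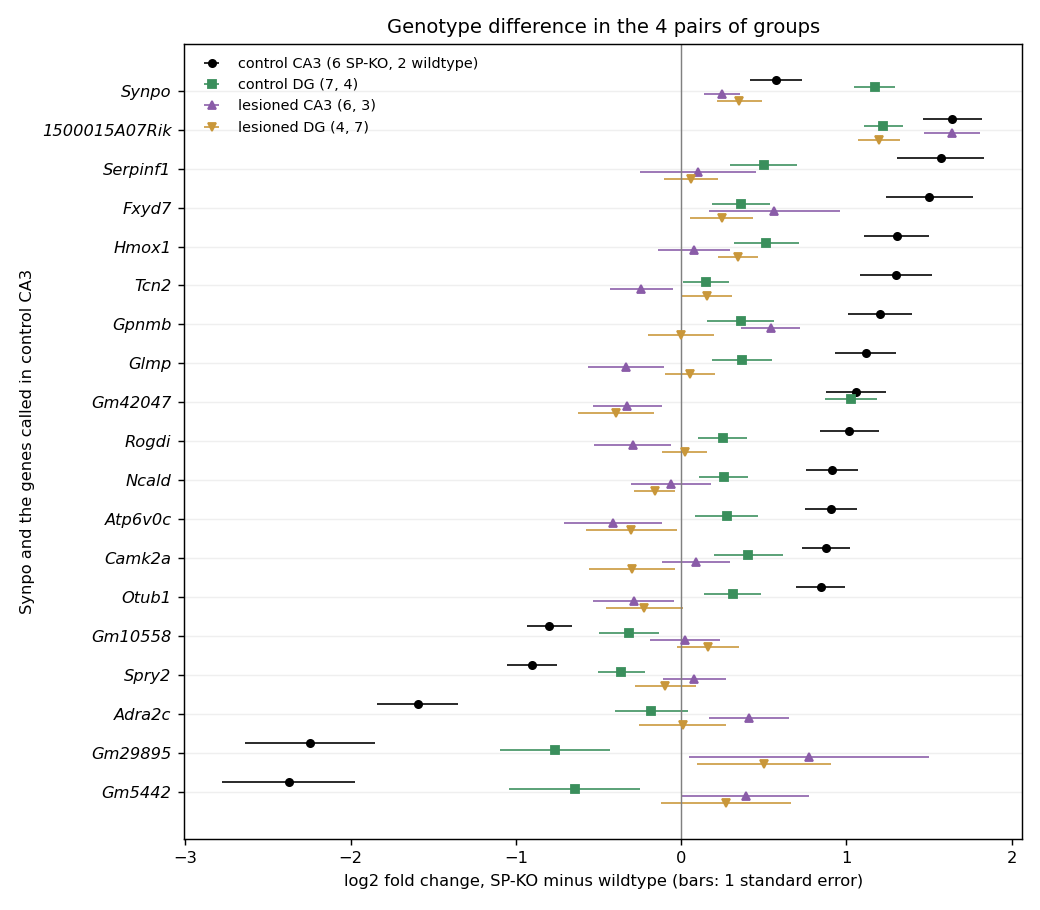
Log2 fold change, SP-KO minus wildtype, of Synpo and 18 of the 19 genes called in control CA3, in each of the 4 pairs of groups (SP-KO and wildtype library numbers in the legend). Bars are 1 SE. 1500015A07Rik lies between 1.20 and 1.64 in all 4, and for all 18 genes the control CA3 value, by which they were chosen, is the farthest from 0.

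The difference between comparisons was tested as an interaction in edgeR. For genotype by region in control cultures, 0 of 27269 genes were called (0%), with 1195 at an unadjusted p under 0.05 where 1363 are expected, and DESeq2 called 0. For genotype by lesion in CA3, 0 of 25933 genes were called (0%), with 4451 at an unadjusted p under 0.05 where 1297 are expected. There, the smallest edgeR adjusted p was 0.0817. DESeq2 called 387 of the 25933 genes, among them 11 of the 19 called in control CA3. These 19 were chosen by their values in control CA3 libraries that the interaction test used again, so the overlap is no separate support. Adra2c had the smallest adjusted p among the named genes in the lesion interaction (log2 difference 1.96 ± 0.34 SE, edgeR adjusted p = 0.0817, DESeq2 0.000605), and that of Tcn2 was 0.0974 (-1.58 ± 0.32, DESeq2 0.00301). Gm5442 (DESeq2 adjusted p = 0.00560), Gm42047 (0.00666), Glmp (0.0155), Rogdi (0.0280), Hmox1 (0.0303), Spry2 (0.0461), Otub1 (0.0474) and Gm29895 (0.0499) were also called by DESeq2 and not by edgeR. The interaction of 1500015A07Rik was -0.04 ± 0.24 with the lesion and -0.46 ± 0.21 with region.

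The gene lists that follow were read against what all genes did in these libraries. The median log2 fold change over all 23408 genes was -0.03, but it was -0.44 in the 10363 genes with a mean normalized count up to 50 and 0.13 in the 7546 genes over 300. Of the latter, 18.5% had all SP-KO libraries above and 2.41% all below both wildtype libraries. Genes that are not protein coding had a median of -0.31 and protein coding genes 0.04. Among genes with a mean over 100, split into 5 classes of equal size, the median rose from 0.01 in the class of lowest GC content to 0.20 in the highest, and fell from 0.17 in the class of shortest exon length to 0.04 in the longest. The share of counts in genes that are not protein coding was 3.48% to 4.60% in SP-KO and 4.80% and 4.52% in wildtype libraries. The nuclear RNA Malat1 stood at 11070 to 14600 CPM in SP-KO against 18600 and 17380 CPM, and Gm10717 at 302 to 994 against 2156 and 1708 normalized counts. Removing the length trend, or length and GC trends, also moved the median of all genes, to -0.11 in both cases. The part of these differences in the results was not tested.

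Among the lists not written after the results were seen, glycolysis had the largest share of members whose groups did not overlap. Of 21 genes of glycolysis and lactate transport, 0 were called, 19 had a positive log2 fold change, and 8 (38.1%) had all SP-KO libraries above both wildtype libraries. The median was 0.41. Eno1 (enolase) ranged from 17906 to 31099 normalized counts in SP-KO against 13076 and 14395, with a log2 fold change of 0.80 ± 0.19 (SE, edgeR adjusted p = 0.0991). Tpi1 (triosephosphate isomerase) stood at 0.74 ± 0.18, Gpi1 (glucose phosphate isomerase) at 0.59 ± 0.17 and Pfkl (the liver-type phosphofructokinase) at 0.51 ± 0.15. Once length and GC trends were removed, the median of the list was 0.21 and that of all genes -0.11. In the other pairs of groups it was 0.21 in control DG, -0.12 in lesioned CA3 and -0.15 in lesioned DG. Respiratory chain lists had medians below 0 in control CA3. Of 43 subunits of complexes III to V, 0 were called, 17 were positive, and the median was -0.16, with 7 members (16.3%) below in all SP-KO libraries and 3 (6.98%) above. Atp5k, a subunit of ATP synthase, ranged from 1604 to 3435 against 3870 and 4851 (log2 fold change -0.83 ± 0.20), and Cycs, cytochrome c, stood at -0.54 ± 0.14. Complex I had a median of -0.06 over 35 subunits, with 2 members above (5.71%) and 1 below (2.86%). In control DG both medians were above 0, at 0.14 for complexes III to V (33 of 43 positive) and 0.17 for complex I (33 of 35). In lesioned CA3 they were -0.10 and -0.07, and in lesioned DG -0.07 and -0.09. Without wildtype replicate 2 the median in control CA3 was -0.07 for complexes III to V and 0.11 for complex I, and without wildtype replicate 1 that of complex I was -0.21.

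Immediate early genes, which neurons transcribe within minutes of activity, had the lowest median among the lists drawn in the plot of shares. Of 23, 0 were called, 5 were positive, and the median was -0.29. Egr1, a zinc finger transcription factor, ranged from 172 to 423 normalized counts in SP-KO (median 240.3) against 588 and 513 (log2 fold change -0.98 ± 0.25 SE, edgeR adjusted p = 0.118). Arc, the dendritic mRNA of a protein that promotes AMPA receptor endocytosis, ranged from 18.5 to 82.2 against 114 and 140 (-1.35 ± 0.38). Ptgs2, cyclooxygenase 2, ranged from 442 to 659 against 751 and 749 (-0.51 ± 0.16). In these 3 genes and in Egr4, 4 of 23 (17.4%), all SP-KO libraries lay below both wildtype libraries. This share was 8.27% over all genes tested. It was 2.41% over genes with a mean normalized count over 300 and 13.7% over those up to 50. Inhba, the activin beta A subunit, overlapped, with wildtype libraries at 180 and 735. The list's median was -0.07 without wildtype replicate 2 and between -0.21 and -0.40 without any other single library. Summed, the genes overlapped, at 429.9 to 610.1 CPM in SP-KO against 609.1 and 607.5 CPM in wildtype. In lesioned CA3 the median was 0.07 (17 of 23 positive), in control DG -0.12 (9 of 23) and in lesioned DG 0.27 (19 of 23).

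The lists of glutamate receptors had medians near 0. Of 16 AMPA receptor subunits and auxiliary proteins 0 were called, and the median log2 fold change was 0.08. All SP-KO libraries were above both wildtype libraries in 4 (25%), against 18.5% of genes with a mean normalized count over 300. Among the 4 were the auxiliary subunit gene Cacng3 (416 to 906 normalized counts against 245 and 352, log2 fold change 1.01 ± 0.26 SE, edgeR adjusted p = 0.118) and Syndig1 (0.61 ± 0.19). In none of 6 NMDA receptor, 7 kainate receptor or 7 metabotropic glutamate receptor genes did the groups separate. Their medians were 0.06, -0.04 and 0.09. Grin2b, an NMDA receptor subunit, stood at 0.16 ± 0.14 and Grik4, a kainate receptor subunit of CA3 neurons, at 0.09 ± 0.19. Of 12 GABA-A receptor subunits, Gabra4 alone separated (0.40 ± 0.16), and none was called.

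Among 24 postsynaptic scaffold genes Camk2a was the 1 called and the median was 0.12. In all SP-KO libraries 4 members were above (16.7%) and 1 below (4.17%). Over genes with a mean normalized count over 300 these shares were 18.5% and 2.41%. Ppp1r9b, which encodes the spine protein spinophilin, ranged from 1092 to 1622 against 851 and 817 (log2 fold change 0.63 ± 0.16 SE, edgeR adjusted p = 0.118). Shank3 ranged from 75.4 to 154 against 224 and 135 (-0.72 ± 0.25), with overlapping groups, and Sipa1l1 stood at 0.32 ± 0.12. Of 30 spine actin regulators 0 were called, 23 were positive, and 8 (26.7%) were above in all SP-KO libraries and 0 below, with a median of 0.18. The leading members were Arpc4, a subunit of the Arp2/3 complex that nucleates branched actin (0.70 ± 0.16, adjusted p = 0.0984), the kinase gene Pak1 (0.49 ± 0.12) and Cfl1, cofilin, which severs filaments (0.58 ± 0.15). After removal of length and GC trends the median of this list was 0.00 and that of all genes -0.11, a difference of 0.11. Alpha-actinins, partners of synaptopodin, were not called: Actn2 stood at 0.41 ± 0.24, Actn4 at 0.29 ± 0.19 and Actn1 at 0.19 ± 0.13. Actn3 stood at -1.35 ± 0.60 with 3.91 to 12.6 normalized counts in SP-KO, against 20.3 and 17.6 in wildtype.

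Genes of the endoplasmic calcium store, from which the spine apparatus is built, had 4 members above (18.2%) and 3 below (13.6%) in all SP-KO libraries. The shares were 9.02% and 8.27% over all genes, and 18.5% and 2.41% over genes with a mean normalized count over 300. Of 22, 0 were called, 15 were positive, and the median was 0.15, or 0.25 and 0.08 without wildtype replicate 1 or 2. Jph3, a junctophilin that tethers the reticulum to the plasma membrane, ranged from 884 to 1260 normalized counts in SP-KO against 827 and 711 (log2 fold change 0.46 ± 0.14 SE, edgeR adjusted p = 0.155). Hspa5, the chaperone BiP, stood at 0.41 ± 0.14 and Calr, calreticulin, at 0.36 ± 0.13. Ryr1, a ryanodine receptor, ranged from 37.1 to 63.1 against 93.5 and 77.4 (-0.70 ± 0.26). Atp2a3 and Itpr3 were also below in all SP-KO libraries, at mean normalized counts of 14.17 and 26.97. Of 36 genes of synaptic vesicles and the active zone 0 were called, 8 (22.2%) were above and 2 (5.56%) below, with a median of 0.16, or 0.09 without wildtype replicate 2. The leading members were the syntaxin gene Stx1a (390 to 497 against 271 and 262, log2 fold change 0.71 ± 0.16, adjusted p = 0.0892), the Rab3 effector gene Rph3a (0.92 ± 0.23) and Slc17a7, the vesicular glutamate transporter VGLUT1 (0.67 ± 0.20). Of 23 local translation regulators 7 (30.4%) were above and 1 (4.35%) below, with a median of 0.17, led by the FMRP-related Fxr2 (0.79 ± 0.23) and the elongation factor gene Eef2 (0.51 ± 0.15). Of 37 potassium channel genes 13 were positive and the median was -0.11, or -0.01 without wildtype replicate 1. All SP-KO libraries lay below both wildtype libraries in 4 (10.8%), Kcnq3 having the smallest p (-0.33 ± 0.12), and above in 2 (5.41%), one of them Kcnb2 (0.47 ± 0.17). These shares were 8.27% and 9.02% over all genes, and 2.41% and 18.5% over genes with a mean normalized count over 300.

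Protein turnover and trafficking lists had positive medians with 0 genes called. Of 38 proteasome subunits 37 were positive, 10 (26.3%) were above in all SP-KO libraries, and the median was 0.23. After removal of the length trend it was 0.09, or 0.21 above the median of all genes. It was 0.13 without wildtype replicate 1 and 0.39 without wildtype replicate 2. Psmd11, a lid subunit, stood at 0.40 ± 0.13 (SE). Of 29 ubiquitin-conjugating enzymes the median was 0.23, and Ube2h ranged from 1630 to 2217 against 1134 and 1317 (0.65 ± 0.14, edgeR adjusted p = 0.0866). Of 50 Rab GTPases 41 were positive, with a median of 0.24 and 9 above (18.0%), led by Rab11b of recycling endosomes (0.65 ± 0.14, adjusted p = 0.0892). Over all genes with a mean normalized count over 300, 72.2% were positive, 18.5% were above, and the median was 0.13. The Rab share above was thus near that of such genes. The 81 cytosolic ribosomal protein genes had a median of -0.09, with 7 above (8.64%) and 5 below (6.17%).

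**Figure D4:**
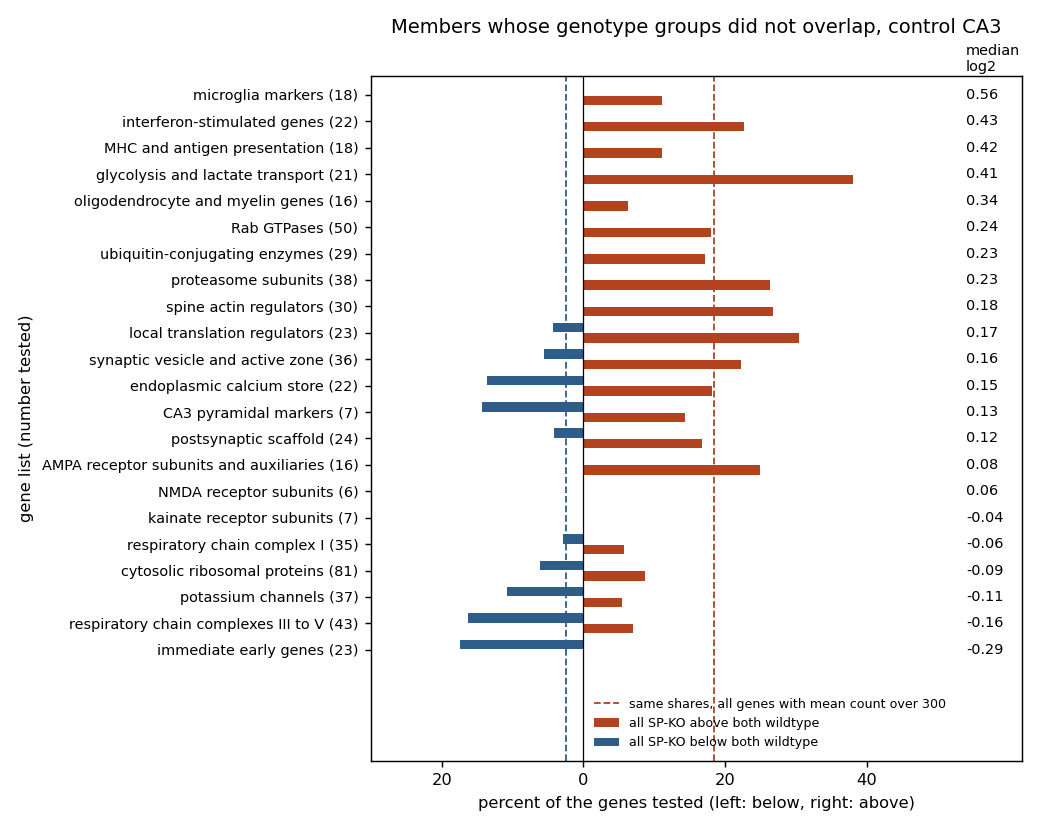
Share of the tested members of each list whose 6 SP-KO libraries lay all above (right) or all below (left) both wildtype libraries, in percent, with the median log2 fold change at the right edge. Dashed lines give the same shares over all genes with a mean normalized count over 300, 18.5% above and 2.41% below. Over all genes tested, which are not drawn, the shares were 9.02% and 8.27%. Glycolysis reaches 38.1% above, and immediate early genes 17.4% below.

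All 18 microglia markers had a positive log2 fold change, with a median of 0.56, but in 2 of 18 (11.1%) alone did the groups separate, and 0 were called. All SP-KO libraries were above both wildtype libraries in 9.02% of all genes and in 18.5% of those with a mean normalized count over 300. C1qa, a complement subunit made by microglia, ranged from 1309 to 2102 normalized counts in SP-KO (median 1773) against 661 and 1071 (log2 fold change 1.04 ± 0.20 SE, edgeR adjusted p = 0.0716). Trem2 stood at 0.74 ± 0.22, C1qb at 0.75 ± 0.23 and Cd68 at 0.81 ± 0.26, each with overlapping groups. The summed markers ranged from 1206 to 2516 CPM in SP-KO and were 1031 and 1674 CPM in wildtype. Without wildtype replicate 1 the list's median was 0.27, and without wildtype replicate 2 it was 0.97. The rise was not seen in lesioned CA3, where the median was -0.11 (3 of 18 positive). It was 0.40 (18 of 18) in control DG and 0.16 (14 of 18) in lesioned DG. In bulk tissue, more cells of a type and more RNA per cell cannot be told apart. The part of microglia in the called genes was not tested.

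The 22 interferon-stimulated genes were all positive as well (median 0.43), with 5 (22.7%) above in all SP-KO libraries and 0 called. Their median was 0.41 without wildtype replicate 1, 0.64 without wildtype replicate 2 and 0.36 (18 of 22 positive) without SP-KO replicate 3. Summed, they overlapped, at 431.6 to 907.1 CPM in SP-KO against 456.9 and 509.8 CPM. In lesioned CA3, control DG and lesioned DG the medians were 0.01, 0.30 and 0.19. Isg15, a ubiquitin-like modifier, ranged from 31.0 to 75.8 against 6.78 and 21.1 (log2 fold change 1.70 ± 0.49 SE, edgeR adjusted p = 0.139), and Bst2, tetherin, stood at 0.86 ± 0.24. Of 18 MHC and antigen presentation genes 14 were positive (median 0.42), and Tap1, a subunit of the peptide transporter, separated (109.9 to 159.6 against 70.5 and 57.5). Myelin genes had a median of 0.34, with the groups separated in 1 of 16. Without wildtype replicate 1 the myelin median was 0.05 (9 of 16 positive), and without wildtype replicate 2 it was 0.79. Astrocyte markers had a median of 0.10 over 14 genes, with 1 (7.14%) above. Of 10 reactive astrocyte genes 0 were called, 8 were positive and the median was 0.22. All SP-KO libraries were above both wildtype libraries in 3 (30.0%), against 9.02% over all genes and 18.5% over those with a mean normalized count over 300. Gfap ranged from 27799 to 31935 against 17932 and 24584 (0.50 ± 0.14, adjusted p = 0.132) and Lcn2, lipocalin 2, stood at 0.82 ± 0.21. Of 18 interneuron markers 0 were called. All SP-KO libraries were above both wildtype libraries in 2 (11.1%) and below in 2 (11.1%), near the 9.02% and 8.27% of all genes. Cck, the cholecystokinin gene, ranged from 91.7 to 295 against 473 and 449 (-1.33 ± 0.34), and Calb2, calretinin, from 204 to 967 against 136 and 117 (1.66 ± 0.51), so that both separated in opposite directions. Among the remaining lists, such as synaptic adhesion (median 0.05 over 23 genes) and cholesterol synthesis (0.20 over 21 genes), 0 genes were called. The median of cholesterol synthesis was 0.04 without wildtype replicate 1 and 0.50 without wildtype replicate 2. The medians farthest from 0 there were 0.75 for 7 fibroblast and meningeal markers and -0.61 for 7 choroid plexus and ependymal markers, and in neither list did any member separate.

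**Figure D5:**
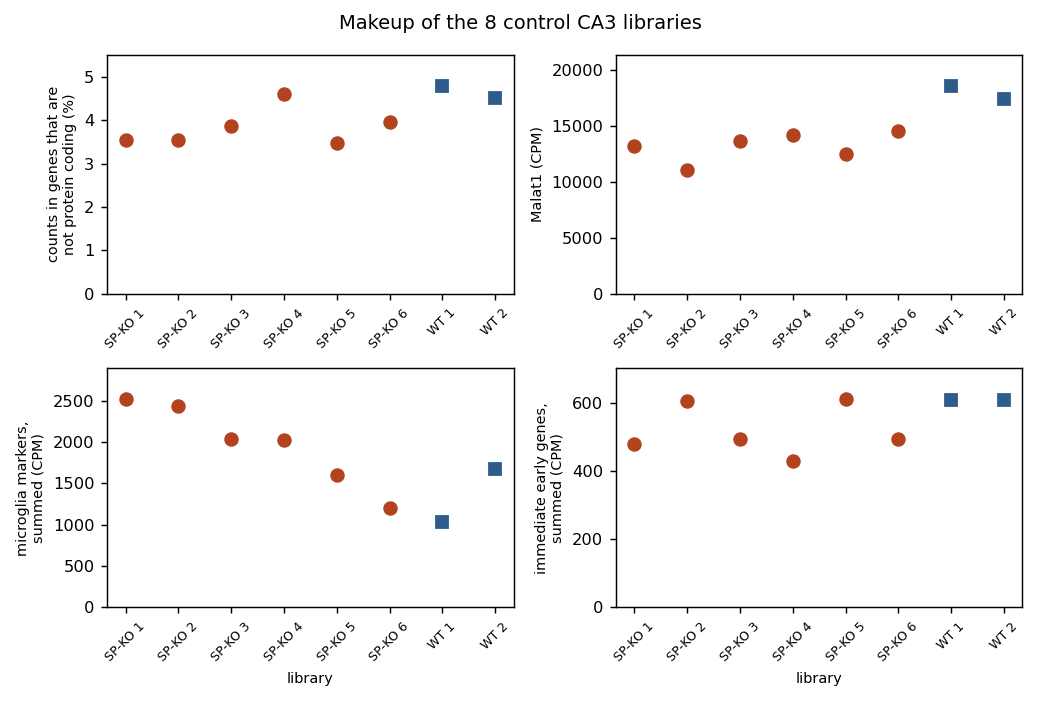
Makeup of each control CA3 library: share of counts in genes that are not protein coding (%), Malat1 (CPM), summed microglia markers (CPM) and summed immediate early genes (CPM). Points are SP-KO, squares wildtype. The wildtype libraries are highest in Malat1 (18600 and 17380 CPM), while the microglia sums and the immediate early gene sums of the genotypes overlap.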

How the data were processed

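RNA of 8 control CA3 samples, and of 31 other CA3 and DG samples for side-by-side values, was converted to cDNA, amplified with 12 PCR cycles and sequenced. Per the submitters' processing notes, the authors used cutadapt 3.5 for trimming, STAR 2.7.8a for alignment to mm10 and featureCounts 2.0.1 for counting. The deposited values are raw counts per gene for 55291 symbols, of which 107 stand for several genes. Positions and types came from the deposited annotation (GRCm38). Reads carry no molecular identifiers, so the spread was taken from replicates, and total counts set the precision of low values. Strand was not used, so antisense pairs are uncertain.

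Samples were grouped by their labels. The 8 libraries were fitted in edgeR 4.0.16 (R 4.3.3) with TMM normalization, filterByExpr, the quasi-likelihood test and genotype as the one factor. The Benjamini-Hochberg adjustment covered every autosomal gene tested. Fold changes are SP-KO minus wildtype, and SE is the log2 fold change over the root of F. Normalized counts were obtained by scaling each library to the geometric mean of the TMM-corrected totals. CPM uses total counts. Alternatives used DESeq2 1.42.0, limma 3.58.1, other scalings, filters and sample sets. The permutation test used scipy 1.17.1. The scripts were tested on simulated data.

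Named were Synpo, called protein coding genes with a mean normalized count over 100 (12 of smallest p per direction), called genes within 10 Mb of Synpo, up to 4 members per list by smallest p, Nnt and sex genes. Other genes (paralogs, neighbours and overlapping genes of called genes, and Gm42047, Egr4, Atp2a3, Itpr3 and Actn1) were added after their values were seen. The comparison and the lists were chosen with earlier results of these data known. The values of 1 called gene are not reported here. CoIP and input libraries were not used here.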

Additional observations from a re-analysis of the deposited data

Results flagged for a closer look

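Values of Synpo and the 19 called genes were examined for single SP-KO libraries far from the other 5. The lincRNA gene Gm29895 met this: its normalized count was 16.2 in SP-KO replicate 4 and at most 12.5 in the other SP-KO libraries, a gap of 0.658 of the group's range where the limit for 6 libraries is 0.625. Chance alone gives about 1 such flag in 20 groups, and 20 genes were examined. SP-KO replicate 4 also had the highest share of counts outside protein coding genes among the SP-KO libraries (4.60%).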

How the results depend on the processing

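The direction of the difference was the same for Synpo and all 19 called genes under every alternative that could be computed for them (24 or 25 each). In each of these genes the SP-KO libraries lay on one side of both wildtype libraries, so alternatives on these same libraries could hardly reverse it. The limit of a mean over 300 kept the main fit and only dropped calls, so it was no separate test. How many genes were called was not stable. Against 19 genes (73.7% higher in SP-KO), the count was 698 with DESeq2 (87.2% higher), 16 with RLE size factors, 1 with library size alone, 994 without a filter on low counts, 14 with a mean over 300, 30 with limma voom (53.3% higher), 1 with sex chromosomes and mitochondria included, 3 with all 4 CA3 groups and 18 with all 8 regional groups in one fit. It was 3 after removal of the length trend and 2 after removal of length and GC trends, 216 with sex class (Xist against Y-linked counts) as a covariate, 72 in the 6 libraries with more Xist, and 1 for changes over 1.5-fold. Leaving out single libraries gave 0 to 160 genes. Chosen after seeing the data, leaving out SP-KO replicates 1, 5 and 6 together gave 12 genes, 6 of the 19 among them, and testing only protein coding genes with a mean over 100 gave 0 (1790 at an unadjusted p under 0.05, edgeR). The cause of these shifts was not tested.

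1500015A07Rik stayed called under 23 of 24 alternatives and lost its call without wildtype replicate 1 (adjusted p = 0.136). The other 18 were called under between 6 and 14. Synpo was called under 3 of 25. Library size alone moved the median of all genes from -0.03 to -0.10.

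Replicate numbers 1 and 2 occur in both genotypes, but nothing in the labels pairs them. The deviations of same-numbered libraries from their group means correlated at -0.08 and 0.20. With the replicate number as a block, 2440 genes were called in control CA3, 300 in lesioned CA3 (2 without the block), 4 in control DG and 5 in lesioned DG. DESeq2 called 21, 216 and 11 genes in lesioned CA3, control DG and lesioned DG, and no filter gave 24, 34 and 6. For the lesion interaction DESeq2 called 387 and no filter 121 genes, and for the region interaction no filter called 1. RLE size factors called 0 in both interactions. With 2 wildtype libraries, the two-sided exact permutation test used here cannot fall below p = 0.0714 for a single gene, and for lowly counted genes such as Gm29895 a few reads decide the value.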
